A study of Mus musculus with 4 samples.

Results

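The transcripts of 10 immunoglobulin superfamily adhesion molecules that are known for their part in retinal wiring were examined in RNA pulled down with YTHDF2 and in the RNA it was pulled down from. They were chosen by name from the 52550 genes of the count table. They are *Dscam* and *Dscaml1*, the sidekicks *Sdk1* and *Sdk2*, the L1 family (*L1cam*, *Nrcam*, *Nfasc* and *Chl1*), *Ncam1*, and the contactin *Cntn2*. RNA immunoprecipitation followed by sequencing (RIP-seq) was carried out on retinas of wild type C57BL/6 mice at postnatal day 0, dissociated with papain. Each of 2 replicates gave 1 library of total RNA set aside before immunoprecipitation (Input) and 1 library of the RNA eluted from an anti-YTHDF2 antibody (RIP), so that all 4 libraries share genotype, strain, age and tissue. How many animals went into a replicate is not given in the sources used here. A pulldown with control IgG was not analysed here, so the only comparison is RIP with Input.

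YTHDF2 binds mRNA that carries N6-methyladenosine (m6A) and is known for shortening the life of the transcripts it binds. The adhesion molecules are membrane or membrane-anchored proteins whose immunoglobulin domains bind partners on neighbouring cells, often a copy of the same protein. In the retina, DSCAM and DSCAML1 are known for keeping neurites and cell bodies of one cell type apart, and the sidekicks for matching synaptic partners in sublayers of the inner plexiform layer. NCAM1, the L1 family and contactins are known from the growth, bundling and guidance of axons.

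m6A is placed by its methyltransferase mostly in a short consensus of which GGACT is a frequent form in DNA letters, and it is often found near stop codons. Methylation was not measured in these files. As context for the molecules that follow, the letters GGACT were searched on the sense strand only, since the RNA is single-stranded, in the last 300 coding bases before the stop codon of the longest coding sequence of each gene. The motif does not overlap another motif searched. It was present in 6 of the 10 adhesion transcripts and in 30.7% of the 11672 tested genes with such a window. The share was 29.2% among genes called enriched in RIP and 27.5% among genes called depleted, by the limits given below. The occurrence nearest the stop codon is shown for these 6 with 10 bases on either side, 5′ to 3′ along the transcript, and capitals mark the motif.
Dscam: agtcactgctGGACTcccggggcca
Dscaml1: ggggctccagGGACTcactactcga
Sdk2: aaggccagccGGACTccaacgcccc
Nrcam: ccttcagacaGGACTgtgaaaaaag
Ncam1: gaggaagaacGGACTccaaaccatg
Nfasc: acagcctggtGGACTatggcgaagg
These letters come from the GENCODE M21 transcripts (GRCm38), and all 6 stretches lie in coding exons. The *Dscam* stretch is chr16:96593105-96593129 on the minus strand in exon 33, with 53 bases from the motif to the stop codon. The *Dscaml1* stretch is chr9:45753064-45753088 on the plus strand in exon 33, 83 bases from the stop codon. The *Sdk2* stretch is chr11:113780897-113780921 on the minus strand in exon 45, 114 bases from it. Of the 10 genes, *Dscaml1* alone held the motif in this window 2 times. The *Nrcam* stretch is chr12:44598393-44598417 on the plus strand in exon 31, 177 bases from the stop codon. The *Ncam1* stretch is chr9:49508641-49508665 on the minus strand in exon 17, 180 bases from it. The *Nfasc* stretch is chr1:132570553-132570577 on the minus strand in exon 32, 140 bases from it. *Sdk1*, *Cntn2*, *L1cam* and *Chl1* did not have these letters in the window. Over whole coding sequences all 10 had the motif, from 0.304 per 1000 bases in *Sdk1* to 2.24 in *Cntn2*. The median was 1.31 for the 10 and 1.08 for tested genes.

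The total count was 39499994 and 36236531 in Input replicates 1 and 2, of which protein-coding genes received 4088424 and 4175459. In RIP replicates 1 and 2 it was 19530226 and 24903212, of which 2203538 and 2083594 fell on protein-coding genes. Levels are given below as CPM, counts scaled to library size and by TMM factors, which sets the libraries level over most genes, or, between genes, as the deposited FPKM, which is per length. Ganglion cell markers summed over 8 genes were at 63.3 and 67.2 CPM in Input and 27.2 in each RIP library. Amacrine cell markers summed over 5 genes were at 159 and 181 CPM in Input and 106 and 99.8 in RIP, and photoreceptor precursor markers over 5 genes at 103 and 93.4 in Input and 124 and 138 in RIP. Summed progenitor markers (6 genes) were at 853 and 594 CPM in Input and 561 and 543 in RIP. Horizontal cell markers (4 genes) were at 17.7 and 46.6 CPM in Input and 21.4 and 18.9 in RIP. Of the 6 lens markers, 5 were at 0 in both inputs, and of the 5 pigment epithelium markers 4 were. Input and RIP of a replicate come from the same kind of preparation, and the part of cell type markers in the results was not tested. *Ythdf2* itself, the target of the antibody, had 124 and 317 counts in Input and 212 and 171 in RIP, and this mRNA does not check the pulldown of the protein.

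In newborn retina the adhesion transcripts covered a wide range of levels, and *Ncam1* stood far above the others. Its Input FPKM was 10.1 and 14.4, at percentile 95.7 of tested genes. *L1cam* followed at 0.825 and 0.696 FPKM, *Dscam* at 0.626 and 0.859, and *Nrcam* at 0.461 and 0.802. *L1cam* and *Dscam* overlapped between the inputs, as did *Dscam* and *Nrcam*, so that their order is not resolved by 2 libraries. *Sdk2* was at 0.555 and 0.356 FPKM, overlapping *Nrcam*, and *Nfasc* was at 0.344 and 0.350. *Sdk1* was at 0.270 and 0.200 FPKM, *Dscaml1* at 0.196 and 0.129, and *Cntn2* at 0.124 and 0.110. *Chl1* was lowest at 0.0137 and 0.0647 FPKM, at percentile 1.74 of tested genes. From *Nfasc* downward the input ranges of neighbours did not overlap. The order by mean FPKM in RIP was the same, except that *Dscam* and *Nrcam* stood above *L1cam*. In RIP replicates 1 and 2, *Dscam* was at 1.81 and 1.14 FPKM, *Nrcam* at 1.84 and 1.05, and *L1cam* at 1.42 and 1.10. Their ranges overlapped, so that this order is not resolved either. In such bulk libraries, fewer cells that express a gene and less RNA per cell cannot be told apart.

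*Ncam1* also dominated the reads. The 10 genes together had 5161 and 6157 counts in Input and 5407 and 4438 in RIP, of which *Ncam1* took 70.5% and 76.6% in Input and 65.4% and 64.1% in RIP. The summed level of the 10 was 155 and 179 CPM in Input and 214 and 184 CPM in RIP. Without *Ncam1* the sum was 45.6 and 42.0 CPM in Input and 74.1 and 66.1 CPM in RIP, so that both RIP libraries lay above both inputs either way.

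**Figure D1:**
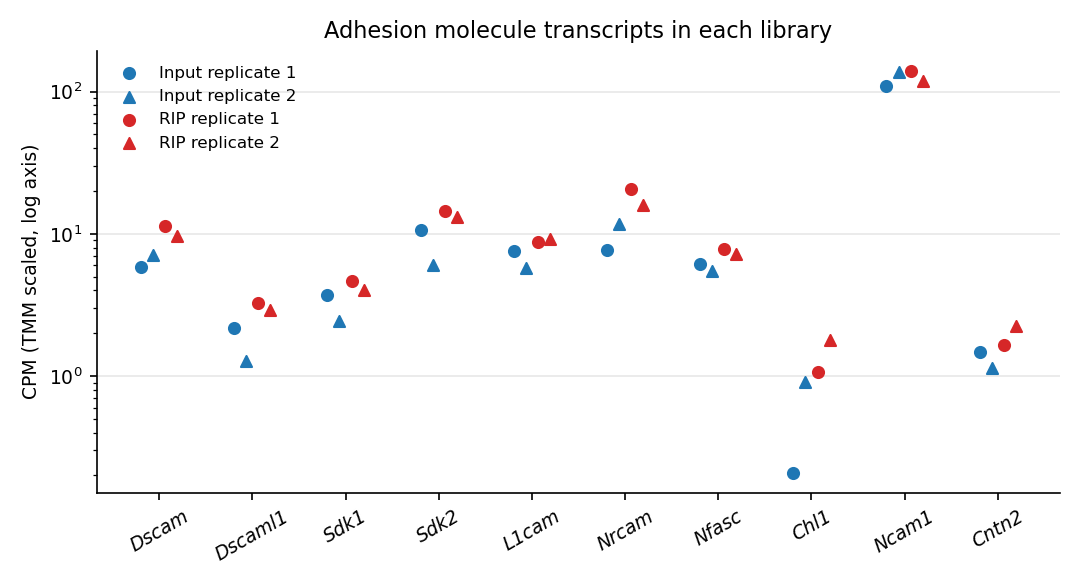
Level of each adhesion transcript in the 4 libraries, in TMM-scaled CPM on a log axis, with 1 point per library and Input and RIP in different colours. Both RIP points lie above both Input points for 9 of the 10 genes, and *Ncam1*, the highest, is the exception. The same holds for 29.6% of all tested genes and for 46.1% to 52.0% in the length classes of the 10.

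Whether YTHDF2 pulldown recovered more or less of each transcript than Input held was tested with edgeR's quasi-likelihood test over 13632 genes that passed a filter on low counts. All 10 adhesion genes passed it. Enrichment was called where the log2 fold change (RIP minus Input) reached 1 with p below 0.05 before adjustment, and depletion where it reached -1 with the same p. None of the 10 adhesion transcripts was called enriched and none was called depleted, against 9.43% of tested genes called enriched and 17.2% called depleted. DESeq2 called 0 of the 10 enriched, where 5.24% of 23345 genes were called. At an unadjusted p below 0.05 with no fold minimum there was 1, *Nrcam*, against 29.7% of tested genes. With the replicate number as a block in the model, *Nrcam* no longer passed, with an unadjusted p of 0.0572 and an adjusted p of 0.192 in edgeR. At an adjusted p below 0.05 in edgeR there was none of the 10, against 3.48% of tested genes higher and 9.78% lower in RIP. The smallest p that an exact permutation test of 2 libraries against 2 can give is 0.333, so that all p-values here rest on edgeR's estimate of the spread over genes.

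All 10 fold changes were nonetheless on the side of RIP. Their log2 fold changes ran from 0.07 for *Ncam1* to 1.35 for *Chl1* with a median of 0.64, while the median over all tested genes was -0.05 and 48.1% of them were above 0. Both RIP libraries lay above both inputs for 9 of the 10, against 29.6% of tested genes. Long transcripts as a class lay on that side as well, as given further below. The median of the 10 was 0.40 in replicate 1 and 0.71 in replicate 2 when each RIP library was set against its own Input.

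**Figure D2:**
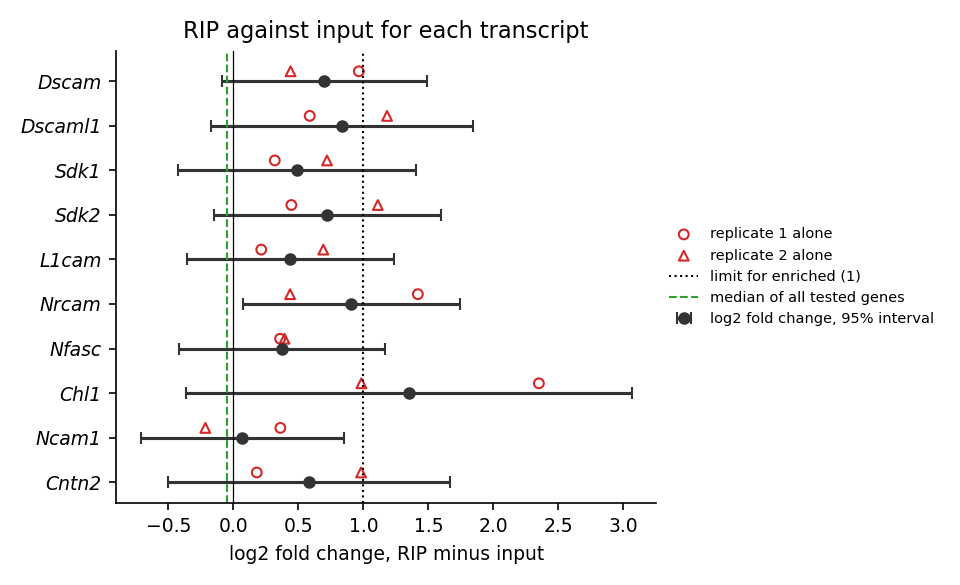
Log2 fold change of RIP over Input for each adhesion transcript with its 95% interval from edgeR (bars), the ratio within each replicate (open symbols), and lines at 0, at 1 and at the median of all tested genes (-0.05). Every estimate lies above 0, only the *Nrcam* interval leaves out 0, and only the *Ncam1* interval leaves out 1. Of all tested genes 48.1% were above 0.

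*Dscam*, the Down syndrome cell adhesion molecule, lies at chr16:96590840-97170752 on the minus strand. It had 195 and 243 counts in Input and 288 and 231 in RIP, which is 5.85 and 7.08 CPM against 11.4 and 9.60 CPM. The higher RIP value was 1.19 times the lower one, and neither overlapped the inputs. Mean levels were 6.46 ± 0.871 CPM (SD, n = 2) in Input and 10.5 ± 1.28 CPM (SD, n = 2) in RIP. The fit gave a log2 fold change of 0.70 with a standard error of 0.35, a 95% interval from -0.09 to 1.49 and an adjusted p of 0.215 (edgeR). The difference did not pass the test, and the interval holds both no change and an enrichment past the fold limit.

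*Dscaml1*, its closest relative, lies at chr9:45426628-45753712 on the plus strand. It was counted 73 and 44 times in Input and 83 and 70 times in RIP, or 2.19 and 1.28 CPM against 3.29 and 2.91 CPM. The inputs differed more from each other than the RIP libraries did, with the higher Input 1.71 times the lower one. Its log2 fold change was 0.84 (SE 0.44, 95% interval -0.18 to 1.85, adjusted p = 0.245, edgeR). Without Input replicate 1 it was 1.27 and called, with an adjusted p of 0.0262 (edgeR), and without Input replicate 2 it was not called. Leaving out Input replicate 1 called 12.3% of tested genes enriched. Per length, *Dscam* was 3.19 and 6.67 times as abundant as *Dscaml1* in Input and 4.11 and 4.04 times in RIP. The RIP ratios lay between the Input ratios, so that no shift between the 2 relatives was detectable.

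The sidekicks showed the same picture at different levels. *Sdk2* (chr11:113776374-114067046, minus strand) had 357 and 208 counts in Input and 368 and 315 in RIP, or 10.7 and 6.06 CPM against 14.6 and 13.1 CPM. The higher Input was 1.77 times the lower one, while the RIP libraries were 1.11 times apart. Its log2 fold change was 0.72 (SE 0.38, 95% interval -0.15 to 1.60, adjusted p = 0.244, edgeR). Without Input replicate 1, the higher of its inputs, it was 1.19, and its lowest value with 1 library left out was 0.36.

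*Sdk1* (chr5:141241490-142215586, plus strand) was at 3.72 and 2.45 CPM in Input and 4.63 and 4.03 CPM in RIP, from 124, 84, 117 and 97 counts. Both RIP libraries were above both inputs, with a margin smaller than the gap between the inputs. Its log2 fold change was 0.49 (SE 0.40, 95% interval -0.43 to 1.41, adjusted p = 0.454, edgeR). *Sdk2* was the more abundant sidekick per length in every library, 2.06 and 1.78 times *Sdk1* in Input and 2.27 and 2.34 times in RIP. On the log2 scale the RIP over Input ratio of *Sdk2* exceeded that of *Sdk1* by 0.13 in replicate 1 and by 0.39 in replicate 2. Both values are smaller than the standard error of *Sdk1*.

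Among the L1 family, *Nrcam* came closest to a call. NRCAM is a neuronal member of the family that takes part in axon guidance and binds ankyrin through its cytoplasmic tail. The gene lies at chr12:44328885-44601964 on the plus strand. It had 259 and 406 counts in Input and 524 and 385 in RIP, or 7.76 and 11.8 CPM against 20.7 and 16.0 CPM. The groups did not overlap, with means of 9.79 ± 2.87 CPM (SD, n = 2) in Input and 18.4 ± 3.37 CPM (SD, n = 2) in RIP, a fold of 1.88. The fit gave 0.91 on the log2 scale (SE 0.37, 95% interval 0.07 to 1.74), with an unadjusted p of 0.0366 and an adjusted p of 0.139 in edgeR. It stayed below the fold limit and did not pass after adjustment over all genes. Replicate 1 gave a log2 ratio of 1.42 and replicate 2 one of 0.44. Without Input replicate 2 the log2 fold change was 1.24 with an adjusted p of 0.000832 and *Nrcam* was called, while its lowest value with 1 library left out was 0.64. Leaving out Input replicate 2 called 15.0% of tested genes enriched.

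*L1cam*, the founding member of the family and a protein of growing axons, lies at chrX:73853778-73896105 on the minus strand. Its 254 and 197 Input counts and 223 RIP counts in each library correspond to 7.61 and 5.74 CPM and to 8.83 and 9.27 CPM. The RIP values differed by a factor of 1.05 from each other and were above both inputs. Its log2 fold change was 0.44 (SE 0.35, 95% interval -0.36 to 1.24, adjusted p = 0.443, edgeR).

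*Nfasc*, whose product neurofascin organises the axon initial segment and nodes of Ranvier, lies at chr1:132564690-132741797 on the minus strand. It was at 6.12 and 5.50 CPM in Input and 7.84 and 7.23 CPM in RIP, from 204, 189, 198 and 174 counts. Its inputs were 1.11 times apart, the closest of the 10 genes, and both RIP libraries were above them by a small margin. The log2 ratio was 0.36 in replicate 1 and 0.39 in replicate 2. The fitted log2 fold change was 0.38 (SE 0.35, 95% interval -0.42 to 1.17, adjusted p = 0.512, edgeR).

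*Chl1*, the close homolog of L1, lies at chr6:103510586-103750211 on the plus strand and had the fewest reads. It was counted 7 and 31 times in Input and 27 and 43 times in RIP, or 0.210 and 0.903 CPM against 1.07 and 1.79 CPM. The higher Input was 4.30 times the lower one, the widest gap of the 10 genes, and the largest fold change of the 10 rests on it. The log2 fold change was 1.35 with a standard error of 0.75, a 95% interval from -0.36 to 3.06 and an adjusted p of 0.266 (edgeR). With the replicate number as a block in the model it was 1.58 with an unadjusted p of 0.0390 and an adjusted p of 0.147 (edgeR) and was called enriched. The block called 10.9% of tested genes enriched. Without Input replicate 1, the Input with 7 counts, the log2 fold change was the lowest with 1 library left out, 0.66. Without Input replicate 2 it was the highest, 2.73.

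Within the L1 family the order by mean FPKM changed only between *Nrcam* and *L1cam*. The level of *Nrcam* was 0.558 and 1.15 times that of *L1cam* in Input and 1.29 and 0.953 times in RIP. The Input and RIP ratios overlapped. The RIP over Input ratio of *Nrcam* exceeded that of *L1cam* by 1.20 on the log2 scale in replicate 1 and was 0.26 lower in replicate 2 (difference -0.26), so that the direction differed between replicates. *L1cam* was 2.40 and 1.99 times *Nfasc* in Input and 2.18 and 2.44 times in RIP.

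*Ncam1* (chr9:49502136-49798925, minus strand) encodes the neural cell adhesion molecule, the main carrier of polysialic acid in developing neurons. It had 3639 and 4716 counts in Input and 3537 and 2846 in RIP, or 109 and 137 CPM against 140 and 118 CPM. It was the only one of the 10 genes whose RIP and Input levels overlapped, with mean levels of 123 ± 20.0 CPM (SD, n = 2) and 129 ± 15.5 CPM (SD, n = 2). Its log2 fold change was 0.07 (SE 0.34, 95% interval -0.71 to 0.85, adjusted p = 0.915, edgeR). The interval left out 1, the fold limit for enrichment. The direction was not settled, with a log2 ratio of 0.36 in replicate 1 and -0.22 in replicate 2.

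*Cntn2*, a contactin anchored to the membrane by a lipid and also known as TAG-1, lies at chr1:132509427-132543256 on the minus strand. It had 49 and 39 counts in Input and 42 and 54 in RIP, or 1.47 and 1.14 CPM against 1.66 and 2.24 CPM. Both RIP libraries were above both inputs, by 0.18 on the log2 scale in replicate 1 and by 0.98 in replicate 2. The log2 fold change was 0.58 (SE 0.48, 95% interval -0.50 to 1.67, adjusted p = 0.453, edgeR).

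The annotated genes that overlap the 10 on either strand and are in the table had at most 7 counts in any library, and 3 annotated genes that overlap *Dscam* were not used here. The inputs differed more than the pulldowns. The gap between the inputs was larger than that between the RIP libraries for 9 of the 10 genes, with a median absolute log2 gap of 0.51 between inputs and 0.22 between RIP libraries. Over the 6858 tested genes that reached 50 counts in each of the 4 libraries, the median gaps were 0.57 and 0.19.

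The count of calls depended on the scaling. With library size alone, without TMM factors, 4 of the 10 were called enriched, *Dscam* (log2 fold change 1.04), *Dscaml1* (1.20), *Sdk2* (1.09) and *Nrcam* (1.25). Over all tested genes the median was then 0.27 in place of -0.05, and 17.3% were called enriched. With limma on log2(FPKM + 0.1), *Nrcam* alone was called, at 1.07, and so were 12.4% of genes tested there.

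**Figure D3:**
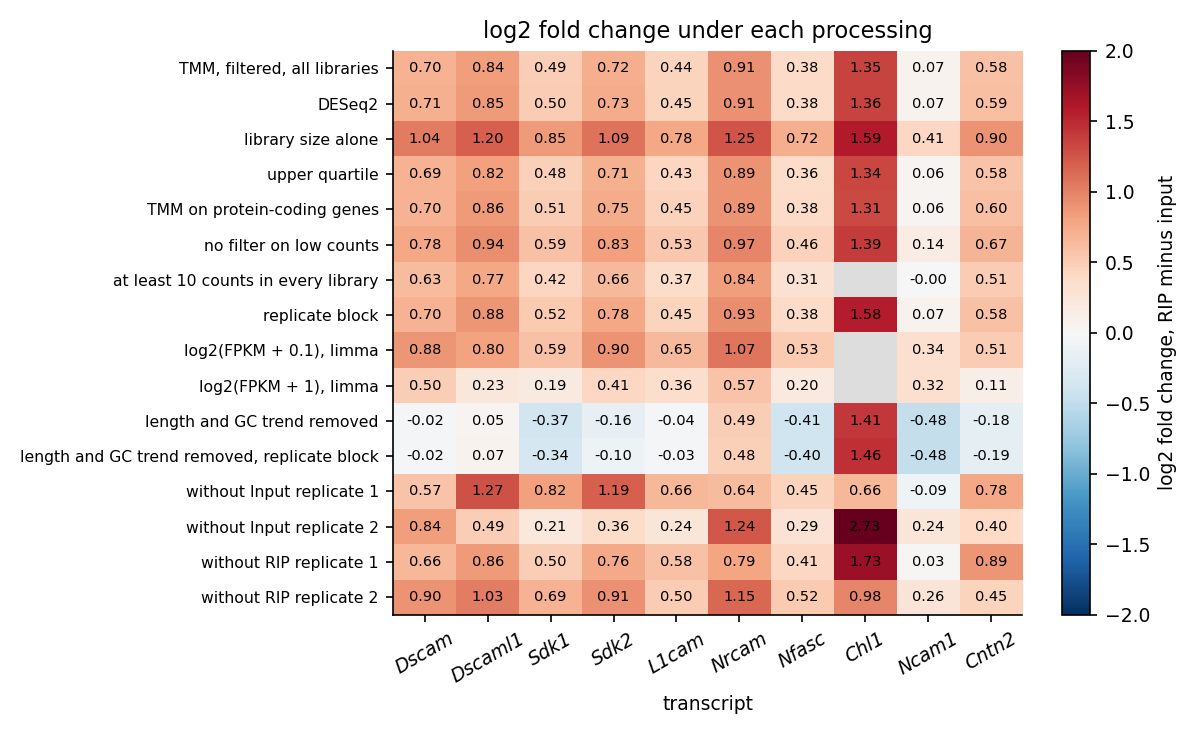
Log2 fold change of each adhesion transcript (columns) under each way of processing the data (rows), printed in the cells and shaded by sign and size; the cells of *Chl1* are empty where it was filtered out. Removing the trend on transcript length and GC content is the setting that puts most of the 10 below 0.

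The 10 transcripts are long, with a median length of the longest annotated transcript of 7448 nt against 3354 nt for tested genes, and fold changes over all tested genes were higher in longer transcripts. The median log2 fold change was -2.07 for genes of up to 1000 nt, 0.40 for 5000 to 6000 nt, 0.50 for 6000 to 8000 nt and 0.58 for 8000 to 12000 nt. In these last 3 classes, which hold all 10 adhesion genes, 16.9%, 18.8% and 22.8% of genes were called enriched. Both RIP libraries lay above both inputs for 46.1%, 52.0% and 51.1% of them. The log2 fold change was above 0 for 70.5%, 74.5% and 76.5% of them.

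Set against genes of like length, 9 of the 10 lay within the middle 50% of their class and *Chl1* lay above it. When a smooth trend on transcript length and GC content over all tested genes was removed, 9.32% of genes were called enriched, among them 1 of the 10, *Chl1* with a log2 value of 1.41. *Nrcam* was then at 0.49 and *Dscaml1* at 0.05, and the other 7 were below 0, the lowest being *Ncam1* at -0.48. The median of the 10 was -0.10. The shared direction of all 10 fold changes did not hold after removal of this trend, which was fitted to the same 4 libraries. Some of the values below 0 were small beside their standard errors, such as *Dscam* at -0.022 (SE 0.23) and *L1cam* at -0.036 (SE 0.23). What the length trend stems from was not tested.

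**Figure D4:**
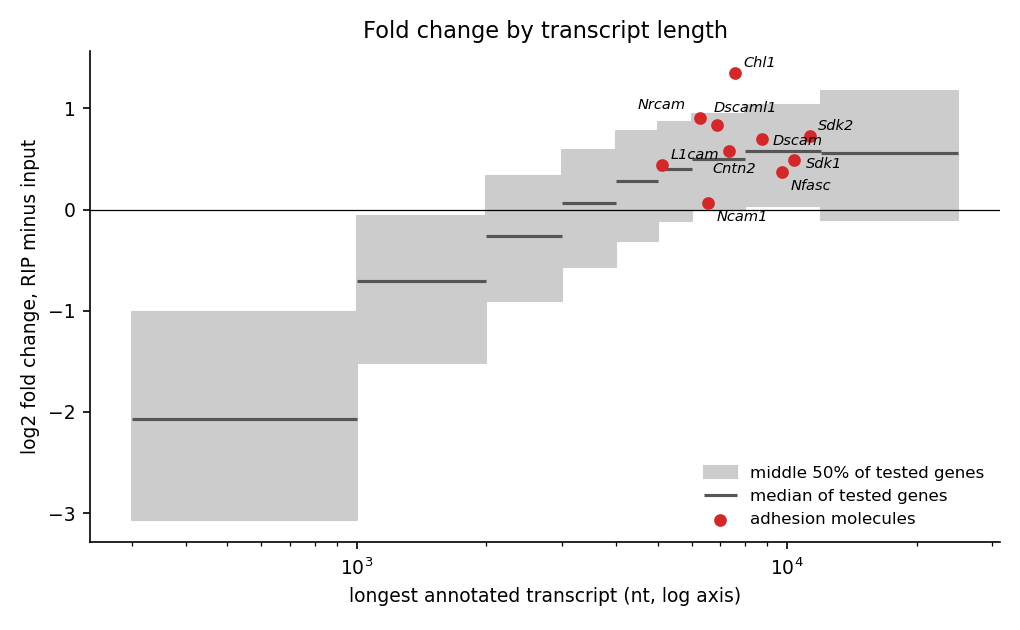
Log2 fold change of RIP over Input against the length of the longest annotated transcript in nt on a log axis, with the median (lines) and middle 50% (grey) of tested genes in length classes and the 10 adhesion transcripts in red. The first and last classes are open-ended and drawn to fixed limits, and only *Chl1* lies outside the grey of its class.

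Other immunoglobulin adhesion molecules of neurons were read from a list of 41 genes, of which 34 passed the filter on low counts. Of these 34, 7 were called enriched, 2 depleted and 25 neither, with a median log2 fold change of 0.41, and 20 were above 0. Over all tested genes 9.43% were called enriched, 17.2% were called depleted and 48.1% were above 0. The median length of the longest transcript of the 34 was 4450.5 nt. In the class of 4000 to 5000 nt, 12.6% of tested genes were called enriched and 62.8% were above 0. With the length and GC trend removed, the count of enriched genes in this list was 4, where 9.32% of tested genes were called enriched. At an adjusted p below 0.05, 5 were higher and 1 was lower in RIP, against 3.48% of tested genes higher and 9.78% lower. The 5 that were higher had log2 fold changes from 1.40 to 2.47, while those of the 10 ran from 0.07 to 1.35. Why the 10 were not called was not tested.

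The largest fold change of this list was that of *Igsf3*, an immunoglobulin superfamily member. It had 55 and 139 counts in Input and 388 and 389 in RIP, a log2 fold change of 2.47 (adjusted p = 0.0126, edgeR). *Igsf9* and *Igsf9b*, related to the fly protein Turtle that acts in dendrite and axon patterning, rose together. *Igsf9* had 471 and 388 counts in Input and 1302 and 1368 in RIP, a log2 fold change of 2.09 (adjusted p = 0.00693, edgeR). *Igsf9b*, which acts at inhibitory synapses, had 158 and 217 counts in Input and 515 and 448 in RIP, a log2 fold change of 1.82 (adjusted p = 0.0128, edgeR). In all 3 the RIP libraries were close to each other and well above the inputs.

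*Mcam*, also known as CD146, had 317 and 240 counts in Input and 662 and 534 in RIP (log2 fold change 1.55, adjusted p = 0.0239, edgeR). *Cadm3*, a synaptic cell adhesion molecule, had 1473 and 969 counts in Input and 2498 and 2217 in RIP (log2 fold change 1.40, adjusted p = 0.0396, edgeR). *Amigo1*, a leucine-rich repeat protein with an immunoglobulin domain, was called at a log2 fold change of 1.07 with an adjusted p of 0.0977 (edgeR). *Mdga2*, which binds neuroligins, was called at 1.05 with an adjusted p of 0.163 (edgeR). Neither of the last pair would be called on the adjusted p.

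Depleted were *Bsg* and *Lsamp*. *Bsg*, basigin, had 1735 and 778 counts in Input and 250 in each RIP library (log2 fold change -1.88, adjusted p = 0.0286, edgeR). *Lsamp*, a lipid-anchored member of the IgLON family, had 284 and 160 counts in Input and 83 and 73 in RIP (log2 fold change -1.06, adjusted p = 0.138, edgeR). The 7 genes of the list that did not pass the filter were *Cntn3*, *Cntn4*, *Cntn5*, *Ncam2*, *Nectin4*, *Hepacam* and *Amigo3*.

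Proteins that bind, anchor, cleave or modify the 10 adhesion molecules formed a list of 30 genes, all tested. Of these, 2 were called enriched, 3 depleted and 25 neither, with a median log2 fold change of 0.22, and 22 were above 0. The shares over all tested genes were the same 9.43%, 17.2% and 48.1%. The median length of the longest transcript in this list was 5657 nt. In the class of 5000 to 6000 nt, 16.9% of tested genes were called enriched and 70.5% were above 0. The count of enriched partners was 0 with the length and GC trend removed, where 9.32% of tested genes were called enriched. It also moved with 1 library left out, as did the share of all tested genes called. At an adjusted p below 0.05 none was higher and 1 was lower in RIP, against 3.48% of tested genes higher and 9.78% lower. *Sptbn1*, a spectrin of the membrane skeleton, had 598 and 991 counts in Input and 1528 and 1321 in RIP (log2 fold change 1.30, adjusted p = 0.0511, edgeR). *Bace1*, the protease that cleaves CHL1 and L1, had 142 and 332 counts in Input and 384 and 394 in RIP (log2 fold change 1.18, adjusted p = 0.110, edgeR). For both genes the RIP libraries lay above the inputs, and the 2 inputs were further apart than the RIP libraries.

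The ankyrins, which tie the L1 family to the spectrin skeleton, were not called. *Ank2* had 559 and 1217 counts in Input and 826 and 831 in RIP (log2 fold change 0.37), and *Ank3* had 426 and 691 in Input and 565 and 513 in RIP (0.41). The polysialyltransferases that modify NCAM1 were not called either. *St8sia2* had 539 and 474 counts in Input and 350 and 296 in RIP (log2 fold change -0.20), and *St8sia4* had 38 and 71 in Input and 35 and 42 in RIP (-0.04).

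The 3 depleted partners were *Gap43*, *Cntnap2* and *Ezr*. *Gap43*, a growth cone protein that acts with NCAM1, had 405 and 372 counts in Input and 66 and 50 in RIP, a log2 fold change of -2.29 (adjusted p = 0.00653, edgeR). *Cntnap2*, which pairs with CNTN2 at myelinated axons, had 438 and 263 counts in Input and 92 and 99 in RIP (log2 fold change -1.42, adjusted p = 0.0505, edgeR). *Ezr*, ezrin, which links L1 to actin, had 252 and 158 counts in Input and 78 and 61 in RIP (log2 fold change -1.11, adjusted p = 0.116, edgeR). In all 3 both RIP libraries lay below both inputs, as they did for 4266 of the 13632 tested genes. Summed ganglion cell markers were lower in RIP as well, at 27.2 CPM against 63.3 and 67.2 CPM. Summed amacrine cell and progenitor markers were also lower, and photoreceptor precursor markers were higher. Those of horizontal cells lay between the inputs. The longest transcript has 1420 nt for *Gap43*, 9827 nt for *Cntnap2* and 3164 nt for *Ezr*. The median log2 fold changes of their length classes were -0.71, 0.58 and 0.06. The part of marker levels and of length in these values was not tested.

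**Figure D5:**
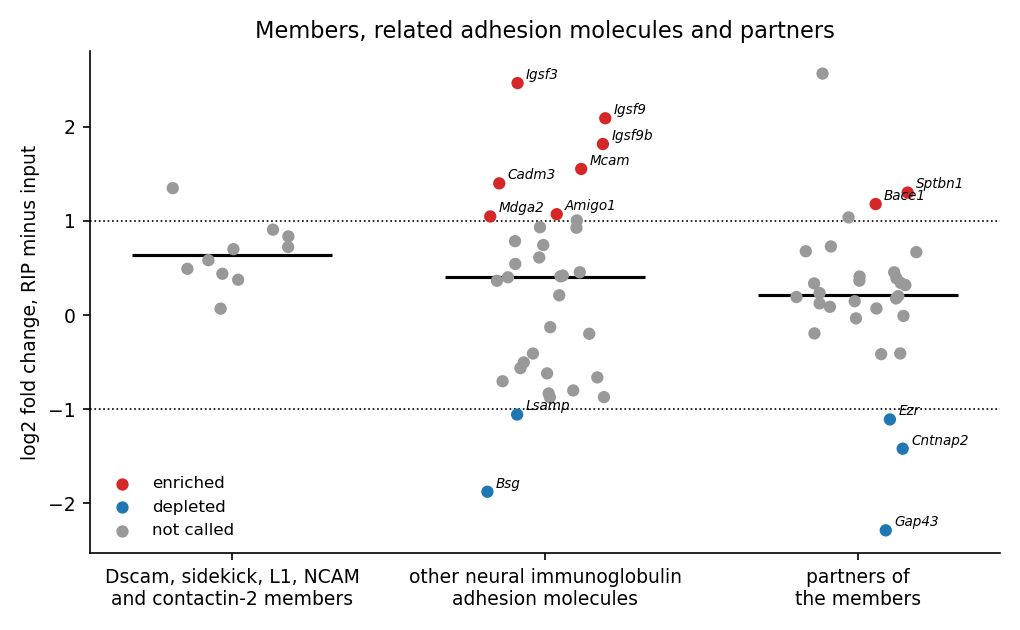
Log2 fold change of RIP over Input for the 10 adhesion molecules, the other adhesion list (34 tested genes) and the partner list (30 genes), 1 point per gene with called genes named and coloured, bars at the medians and dotted lines at -1 and 1. None of the 10 adhesion molecules is called, and both other lists, which are longer, hold called genes on either side. Of all tested genes 9.43% were called enriched and 17.2% depleted, and a difference between the lists was not tested.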

How the data were processed

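RIP-seq of P0 retina was carried out by the authors with 2 replicates, each with an Input and an anti-YTHDF2 library (TruSeq Stranded). The authors deposited a table of raw read counts per gene and a table of FPKM values, scaled for length and library size. STAR 2.5, HTSeq and GRCm38 are named in the submitters' processing notes, and the counting settings are not given in the sources used here. No sample column was left unused.

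The counts were fitted with edgeR 4.0.16 under R 4.3.3 (filterByExpr with a minimum count of 10 and a minimum total of 15, TMM, glmQLFit, glmQLFTest) over all genes, with Benjamini-Hochberg adjustment over the 13632 tested genes. The test was two-sided. Standard errors were derived from the fold change and its F statistic. The fit was tested on simulated data. Annotation, lengths and sequences were those of GENCODE M21 on GRCm38, where 52403 of the 52550 identifiers were found. Intervals are at 95%. The replicates are called biological without their animals being given, and p-values measure only the spread between these samples, which may be technical.

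Alternatives were DESeq2 1.42.0, library size alone, upper quartile scaling, TMM on protein-coding genes, other count filters, limma 3.58.1 on log2(FPKM + 0.1) and log2(FPKM + 1) with a floor of 0.1 on mean FPKM, removal of a length and GC trend (mgcv 1.9.3, basis size 8), the replicate block, an adjusted p with no fold minimum, and each library left out. The series design ties an Input and a pulldown to each replicate. Over the 6858 genes that reached 50 counts in each library, the difference between the inputs and that between the RIP libraries had a Pearson r of -0.0519 and a Spearman rho of -0.0641 across genes.

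The 10 adhesion genes and the lists of other adhesion molecules, partners and cell type markers were chosen with earlier results of these data known. Named are all 10, each called gene of both lists up to the 8 largest in each direction, *St8sia2*, *St8sia4*, *Ank2*, *Ank3* and *Ythdf2*.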

Additional observations from a re-analysis of the deposited data

How the results depend on the processing

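No adhesion transcript was called enriched as reported above, with TMM-scaled counts and no replicate block, and none was called depleted under any setting run. Of the 10, library size alone called 4, where 17.3% of tested genes were called. With log2(FPKM + 0.1) 1 was called, *Nrcam* at a log2 fold change of 1.07, where 12.4% of tested genes were called. The replicate block, the length and GC trend removed, and that trend with the replicate block each called 1, *Chl1* (1.58, 1.41 and 1.46). These settings called 10.9%, 9.32% and 9.04% of tested genes enriched. The replicate block changed no other call among the 10. Leaving out 1 library called 4.52% to 15.0% of tested genes enriched, and 0 to 2 of the 10. Without Input replicate 1 these were *Dscaml1* and *Sdk2*, with 12.3% of all tested genes called, and without Input replicate 2 *Nrcam* and *Chl1*, with 15.0% called. The median log2 fold change of the 10 was 0.97 with library size alone, 0.32 with log2(FPKM + 1), -0.10 with the trend removed, -0.066 with the trend removed and the block, and 0.38 to 0.79 with 1 library left out. The other adhesion list had 12 enriched genes with library size alone and 4 with log2(FPKM + 1), against 7. The shares of tested genes called enriched were 17.3% and 2.66%, against 9.43%. With the trend removed the other adhesion list had 4, both without and with the block, where 9.32% and 9.04% of tested genes were called enriched. The partner list had 1 with log2(FPKM + 1), 0 with the trend removed, and 0 with the trend and the block, against 2. It had 0 with an adjusted p and no fold minimum, where 3.48% of tested genes were higher in RIP. It had 0 to 6 with 1 library left out, where 4.52% to 15.0% of tested genes were called enriched. Count and share were both lowest without RIP replicate 1 and both highest without Input replicate 2.

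Values turned below 0 with the trend removed, without and with the replicate block, for *Dscam* (-0.022 and -0.023), *Sdk1* (-0.37 and -0.34), *Sdk2* (-0.16 and -0.10), *Cntn2* (-0.18 and -0.19), *L1cam* (-0.036 and -0.035), *Ncam1* (-0.48 and -0.48) and *Nfasc* (-0.41 and -0.40). *Ncam1* was also at -0.0029 with at least 10 counts in every library, and ran from -0.089 to 0.26 with 1 library left out. The other values of the 10 stayed above 0, 92 of 107 with all libraries and 39 of 40 with 1 left out. Why these settings changed the calls was not investigated, and the cause was not tested. Where an arm was left with 1 library, it was assumed to vary like the other. The arms did not vary alike, with median absolute log2 gaps of 0.57 between inputs and 0.19 between RIP libraries over 6858 genes. The p-values of these fits are therefore not given. *Chl1* could not be fitted with at least 10 counts in every library or with FPKM. Depth limits *Chl1*, *Cntn2* and *Dscaml1* most, with under 100 counts in every library.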
